A study of Rattus norvegicus with 40 samples.

Results

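Glucocorticoid signalling genes were followed in rat brain 12 months after a blast or a sham procedure. The set held 10 named genes of the 25958 gene identifiers in the deposited tables: the receptor genes Nr3c1 and Nr3c2 and the target genes Sgk1, Tsc22d3, Fkbp5, Klf9, Plin4, Nfkbia, Cdkn1a and Arrdc2. The genes were taken by name from the hippocampus table and joined to the other tables by Ensembl identifier. The hippocampus, amygdala and anterior cortex tables list Nr3c1 under clone names, so it was found through the cerebellum table, which gives that name to 2 identifiers. The 10 genes therefore comprise 11 identifiers, and each of them was measured and passed the filter on low counts in all 4 regions. Both Nr3c1 identifiers are reported. ENSRNOG00000014096 is a gene model of 5078 bases on chromosome 18 (31728373 to 31749647, as the tables give it). ENSRNOG00000048800 is a model of 1239 bases on the same chromosome (32669427 to 32670665), and reads could have been split between them. Unless the shorter model is named, Nr3c1 means the model of 5078 bases.

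Total RNA was sequenced from the hippocampus, amygdala, anterior cortex and cerebellum, with 5 libraries from blast-exposed and 5 from sham-exposed rats in each region, 40 in all. Both groups were sampled 12 months after exposure. Strain, sex, age at exposure and blast strength are not stated in the labels, and neither is the genome build of the tables. The titles carry numbers that recur over the regions, but no label ties a number to an animal. The p-values therefore measure the spread between these libraries, which may in part be technical.

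Corticosterone, the main glucocorticoid of the rat, acts through 2 nuclear receptors. The glucocorticoid receptor, encoded by Nr3c1, is found in most brain cells and is occupied mainly when hormone is high, during stress and at the daily peak. The mineralocorticoid receptor, encoded by Nr3c2, binds corticosterone more tightly and is known to be abundant in hippocampal neurons. Hormone-bound receptor enters the nucleus, binds response elements near or far from its target genes and recruits coregulators. Among the targets are a kinase (Sgk1), a repressor of inflammatory signalling (Tsc22d3), a co-chaperone that lowers the receptor's own hormone affinity (Fkbp5), a transcription factor (Klf9) and the inhibitor of NF-kappaB (Nfkbia).

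Promoter sequences are shown for Sgk1, Tsc22d3 and Nfkbia, 3 targets whose mean was lower in blast libraries in most regions. The sequences are from RefSeq (GRCr8), on the strand of the gene, 5′ to 3′, and end 1 base before an annotated transcription start. Capitals mark the TATA letters TATAAA in Sgk1 and Tsc22d3 and a kappaB match in Nfkbia. The 2 Sgk1 windows lie at chr1:24807232-24807481 and chr1:24804832-24805081, the Tsc22d3 window at chrX:109010035-109010284 and the Nfkbia window at chr6:78597073-78597322, all on the minus strand.
Sgk1, window 1: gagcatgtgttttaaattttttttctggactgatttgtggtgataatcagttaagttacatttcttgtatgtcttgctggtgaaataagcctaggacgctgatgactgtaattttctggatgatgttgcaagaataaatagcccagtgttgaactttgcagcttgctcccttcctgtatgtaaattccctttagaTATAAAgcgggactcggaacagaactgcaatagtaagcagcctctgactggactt
Sgk1, window 3: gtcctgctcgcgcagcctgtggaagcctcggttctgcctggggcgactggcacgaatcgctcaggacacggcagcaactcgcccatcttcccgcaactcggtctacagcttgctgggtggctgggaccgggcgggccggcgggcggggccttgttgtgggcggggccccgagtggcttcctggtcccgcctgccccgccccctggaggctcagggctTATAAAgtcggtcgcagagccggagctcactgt
Tsc22d3, window 3: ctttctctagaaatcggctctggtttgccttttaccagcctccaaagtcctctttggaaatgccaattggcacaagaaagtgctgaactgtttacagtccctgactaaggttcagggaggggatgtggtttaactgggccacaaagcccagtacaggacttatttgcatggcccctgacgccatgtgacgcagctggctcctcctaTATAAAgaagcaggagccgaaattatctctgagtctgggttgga
Nfkbia: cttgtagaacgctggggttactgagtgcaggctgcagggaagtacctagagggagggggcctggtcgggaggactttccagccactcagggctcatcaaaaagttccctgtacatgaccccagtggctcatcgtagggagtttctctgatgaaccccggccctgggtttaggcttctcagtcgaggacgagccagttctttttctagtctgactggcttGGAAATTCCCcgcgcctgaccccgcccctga
The motifs were searched on both strands of 18 windows of 300 bases that matched 9 of the 10 genes. Each window runs from 250 bases before to 50 after a start. Of the 3 genes shown, only windows with a match were printed, and Sgk1 window 2 and Tsc22d3 windows 1 and 2 had none. The TATA letters began 55 and 33 bases before the start in the 2 printed Sgk1 windows and 44 bases before it in Tsc22d3 window 3. In Nfkbia they lay on the opposite strand, from 17 bases after the start, beyond the printed bases. TATAAA occurred in 4 of the 18 windows and in 14.2% of all 33469 promoter windows. The kappaB letters (GGGA, any 2 bases, TTCC) were found in 1 window, that of Nfkbia, 31 bases before the start on the opposite strand, and in 1.3% of all windows. The palindromic response element (AGAACA, any 3 bases, TGTTCT) was in none of the 18 windows and in 0.0149% of all windows, and its single arm AGAACA was in 1 window of Plin4 and in 20.7% of all. A match or its absence in these letters is a description of the windows only.

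Library totals ran from 11268097 to 37128383 counts. Over the 40 libraries, counts ran from 920 to 2775 for Nr3c1 and from 499 to 2143 for Sgk1, and from 18 to 160 for Plin4, the gene with the fewest. Some libraries stood apart. Hippocampus blast libraries Hip_8 and Hip_666 and sham library 11 had 5317 to 8883 CPM (counts scaled to library size) summed over 12 choroid plexus markers, and cerebellum blast libraries 22 and 8 and sham library 33 had 1233 to 2749 CPM over 11 of them, since 1 marker is not listed in every table. Anterior cortex blast library 8 and sham libraries 11, 13 and 15 had counts for 16577 to 17845 genes, against at least 18744 in the other libraries of that region, and hippocampus sham library 14 was low in Nr3c2 and Klf9. Tests without these libraries were also run, and in the anterior cortex they kept sham libraries 14 and 33 alone. Markers of the hippocampus summed to 324 to 498 CPM there and to at most 77.7 CPM elsewhere, those of the anterior cortex to 283 to 521 CPM there and at most 222 elsewhere, and those of the cerebellum to at least 4423 CPM there and at most 173 elsewhere. The 5 amygdala markers did not set the amygdala apart, with 76.2 to 111 CPM there, 100 to 122 CPM in the hippocampus and 134 to 171 CPM in the cerebellum.

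In sham libraries the mineralocorticoid receptor gene Nr3c2 was 2.72 to 3.08 times as high in the hippocampus as in the other regions, whereas the glucocorticoid receptor gene Nr3c1 was highest in the cerebellum and anterior cortex. The co-chaperone gene Fkbp5 stepped down from hippocampus to amygdala, anterior cortex and cerebellum. Sgk1 was highest in the hippocampus, and Klf9 and Tsc22d3 were highest in the cerebellum. These comparisons ask how the 4 regions differ without blast, and CPM here are scaled over all 20 sham libraries.

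The 5 hippocampal sham libraries had 35.5, 79.6, 89.0, 89.5 and 89.6 CPM of Nr3c2 (ENSRNOG00000034007, chromosome 19, 34448289 to 34752695). The low value belonged to library 14, and even that exceeded all amygdala and cerebellum libraries. Amygdala libraries ran from 20.3 to 34.7 CPM, anterior cortex libraries from 19.0 to 41.2 CPM and cerebellum libraries from 19.0 to 28.7 CPM. In edgeR's quasi-likelihood test with Benjamini-Hochberg adjustment over 15695 genes, the log2 difference from hippocampus was 1.47 ± 0.22 (SE) for the amygdala (adjusted p = 4.88e-05), 1.44 ± 0.22 for the anterior cortex (adjusted p = 3.56e-05) and 1.62 ± 0.22 for the cerebellum (adjusted p = 3.05e-06). Without the 6 sham libraries that stood apart these differences were 1.65, 2.02 and 1.81. The other 3 regions were not told apart for Nr3c2 (adjusted p = 0.944, 0.58 and 0.51).

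Nr3c1 averaged 79.9 ± 2.76 CPM (SD, n = 5) in the hippocampus and 78.9 ± 4.95 CPM in the amygdala, and those regions did not differ beyond their spread (adjusted p = 0.939, edgeR). It averaged 115 ± 7.39 CPM in the cerebellum, higher than in the hippocampus by 0.53 ± 0.11 on the log2 scale (adjusted p = 0.000562) and than in the amygdala by 0.54 ± 0.11 (adjusted p = 0.000363). In the anterior cortex 3 libraries had 83.5 to 92.8 CPM and libraries 11 and 15, among those with fewer detected genes, had 132 and 137 CPM. The call of anterior cortex over hippocampus (adjusted p = 0.00605) was lost without the libraries that stood apart, where the log2 difference of hippocampus over anterior cortex went from -0.42 to -0.10 (adjusted p = 0.426). The same held for the amygdala against the anterior cortex, at -0.44 with all libraries (adjusted p = 0.0101) and -0.16 without those (adjusted p = 0.267). The shorter Nr3c1 model was also lower in hippocampus (13.5 ± 5.18 CPM) and amygdala (13.8 ± 2.87 CPM) than in anterior cortex (25.8 ± 7.97 CPM) and cerebellum (25.6 ± 3.73 CPM), and its calls against the anterior cortex were lost without the same libraries.

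The balance of the receptors followed from these levels. Counts of Nr3c2 per count of Nr3c1 had a median of 1.06 in hippocampal sham libraries (0.454 to 1.14, the lowest being library 14), 0.372 in the amygdala (0.251 to 0.447), 0.26 in the anterior cortex (0.227 to 0.301) and 0.226 in the cerebellum (0.163 to 0.236). The ratio is not corrected for gene length and so compares regions, not the amounts of the 2 receptors. Blast libraries had medians of 0.936, 0.444, 0.259 and 0.204 in the same order. The log2 ratio differed between blast and sham by 0.06 in the hippocampus, 0.23 in the amygdala, -0.10 in the anterior cortex and -0.08 in the cerebellum. None of these was past the threshold in exact two-sided permutation tests (p = 0.976, 0.254, 0.444 and 0.532, and adjusted over the 4 regions 0.976, 0.709, 0.709 and 0.709). Without sham library 14 the hippocampal difference was -0.19, so its direction rests on that library.

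**Figure D1:**
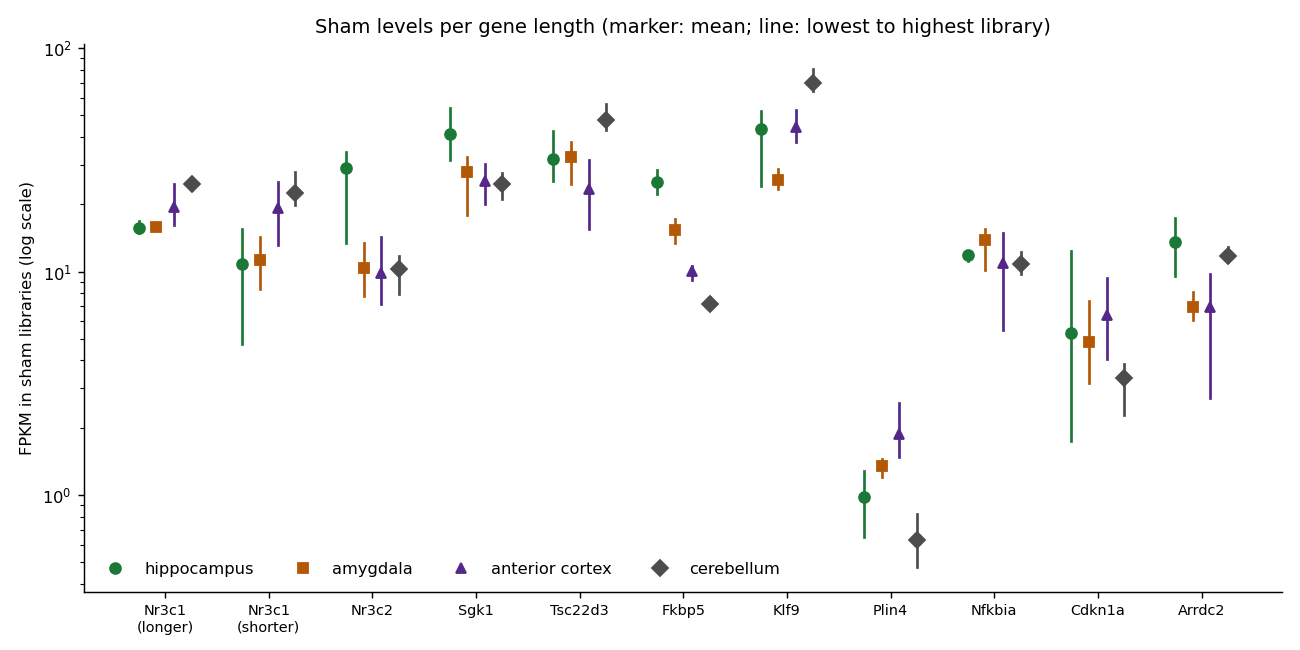
Levels of the 11 identifiers in sham libraries, in FPKM (fragments scaled by gene length and library depth, as deposited) on a log axis. Each marker is the mean of 5 sham libraries of a region (4 in the amygdala) and each line runs from the lowest to the highest library. Nr3c2 is high only in the hippocampus among the 4 regions, Fkbp5 steps down from hippocampus to cerebellum, and Klf9 and Tsc22d3 peak in the cerebellum.

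Among the targets, Fkbp5 (ENSRNOG00000022523) was the one member called between all pairs of regions. Hippocampal sham libraries had 74.1 to 100 CPM, amygdala libraries 43.0 to 57.3 CPM, anterior cortex libraries 34.7 to 38.7 CPM and cerebellum libraries 21.4 to 23.7 CPM, so no 2 neighbouring regions overlapped. All 6 pairs of regions were called for Fkbp5, from a log2 difference of 0.45 ± 0.09 between amygdala and anterior cortex (adjusted p = 0.00154) to 1.94 ± 0.09 between hippocampus and cerebellum (adjusted p = 1.98e-13). Sgk1 (ENSRNOG00000011815), the serum and glucocorticoid regulated kinase that controls ion channels and transporters, had 87.0, 95.2, 98.9, 122 and 141 CPM in hippocampal sham libraries. It averaged 71.9 ± 15.3 CPM in the amygdala, 72.4 ± 13.2 CPM in the anterior cortex and 59.8 ± 6.84 CPM in the cerebellum. Hippocampus exceeded these regions by 0.60 ± 0.16, 0.59 ± 0.16 and 0.86 ± 0.16 on the log2 scale (adjusted p = 0.00932, 0.00558 and 0.000103), while the other 3 did not differ from each other beyond their spread (adjusted p from 0.142 to 0.97). The hippocampal excess over anterior cortex was 0.57 without the libraries that stood apart and lost the call (adjusted p = 0.0809).

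Klf9 (ENSRNOG00000014215), a Krüppel-like transcription factor, averaged 160 ± 13.9 CPM in the cerebellum, 120 ± 18.1 CPM in the anterior cortex, 109 ± 27.6 CPM in the hippocampus and 64.3 ± 5.07 CPM in the amygdala. Of its pairs of regions 5 were called, the exception being hippocampus against anterior cortex (adjusted p = 0.465). Tsc22d3 (ENSRNOG00000056135), which encodes the glucocorticoid-induced leucine zipper, was highest in the cerebellum at 84.6 ± 8.33 CPM and ran from 48.9 ± 13.4 to 62.0 ± 12.7 CPM elsewhere, and each difference from the cerebellum was called (adjusted p = 0.0291, 0.0173 and 0.000412). Plin4 (ENSRNOG00000047046), a coat protein of lipid droplets, was highest in the anterior cortex (8.48 ± 2.31 CPM) and lowest in the cerebellum (2.40 ± 0.546 CPM), a log2 difference of 1.82 ± 0.23 (adjusted p = 9.33e-07). Arrdc2 (ENSRNOG00000019009), an arrestin-domain protein, averaged 31.7 ± 6.70 CPM in the hippocampus and 16.4 ± 1.70 CPM in the amygdala (log2 difference 0.95 ± 0.22, adjusted p = 0.00346). Cdkn1a (ENSRNOG00000000521), a cyclin-dependent kinase inhibitor also known as p21, was called only between anterior cortex and cerebellum, at 9.33 ± 3.18 against 4.11 ± 0.805 CPM (adjusted p = 0.00977). For Nfkbia (ENSRNOG00000007390), the NF-kappaB inhibitor, no pair of regions was called, and its means ran from 15.6 ± 1.53 to 21.3 ± 3.59 CPM.

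Of the 11 identifiers, 5 were called between hippocampus and amygdala, where 20.7% of all genes tested were. The counts were 7 for hippocampus and anterior cortex (43.6% of all genes), 8 for hippocampus and cerebellum (53.3%), 5 for amygdala and anterior cortex (21.8%), 7 for amygdala and cerebellum (58.5%) and 6 for anterior cortex and cerebellum (60.2%). With 11 identifiers these shares are coarse, and for amygdala or anterior cortex against cerebellum they were near the background. Of these 38 called differences, 28 were still called without the 6 sham libraries that stood apart, and none reversed. The 10 lost were all differences from the anterior cortex, where that fit kept sham libraries 14 and 33 alone. A changed level and the smaller group cannot be told apart in a lost call.

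Per gene length, Klf9 and Sgk1 were the most abundant members in hippocampal sham libraries, at 43.3 ± 11.1 and 41.2 ± 9.07 FPKM. Tsc22d3 (31.9 ± 6.54 FPKM), Nr3c2 (29.0 ± 8.89 FPKM) and Fkbp5 (25.0 ± 2.30 FPKM) followed, then Nr3c1 at 15.7 ± 0.738 FPKM. The ranges of Klf9, Sgk1, Tsc22d3 and Nr3c2 overlapped, so their order there is not fixed. In the cerebellum the order was different, with Klf9 at 69.4 ± 6.55 FPKM and Tsc22d3 at 47.6 ± 5.22 FPKM, well apart from Sgk1 and Nr3c1 (both 24.7 FPKM) and from Nr3c2 (10.3 ± 1.42 FPKM). The shorter Nr3c1 model had 10.9 ± 4.31 FPKM in the hippocampus and 22.5 ± 3.13 FPKM in the cerebellum. Reads could have been split between the models, so the place of Nr3c1 in either order is not fixed. Plin4 was the least abundant in each of the 4 regions, at 0.626 to 1.87 FPKM.

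Between blast and sham, no member was called in any region at an adjusted p under 0.05. The pattern among the means was one of lower target genes, which were chosen with earlier results of these data known. Sgk1 was lower in blast by 15.7% to 28.6% in all 4 regions, and Nfkbia and Klf9 were also lower in all 4. Tsc22d3, Plin4 and Fkbp5 were lower in 3 of 4. Cdkn1a went the other way in hippocampus and cerebellum, and Arrdc2 was lower in 2 regions and higher in 2. The receptors showed no common direction. By edgeR, 0 genes of 15059 were called in the hippocampus, 0 of 15280 in the amygdala, 0 of 14918 in the anterior cortex and 0 of 14769 in the cerebellum (0% each), and DESeq2 called 1, 20, 0 and 5, none of them a member. At an unadjusted p under 0.05 stood 2, 1, 2 and 4 of the 11 identifiers, against 284, 1325, 644 and 683 of all genes (1.89%, 8.67%, 4.32% and 4.62%). The amygdala count was near the share of all genes. In the cerebellum 3 of the 4 were lower in blast, and Cdkn1a was higher. Means were lower in blast for 6, 10, 8 and 8 of the 11, where 51%, 50.3%, 50% and 48.9% of all genes were lower. The hippocampal 6 of 11 was near the share of all genes. The median log2 fold change of the 8 target genes was -0.14, -0.19, -0.14 and -0.14 in hippocampus, amygdala, anterior cortex and cerebellum and the median of all genes was close to 0 in each. CPM of these comparisons are scaled within a region. In bulk tissue, fewer cells of a type and less RNA per cell cannot be told apart.

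**Figure D2:**
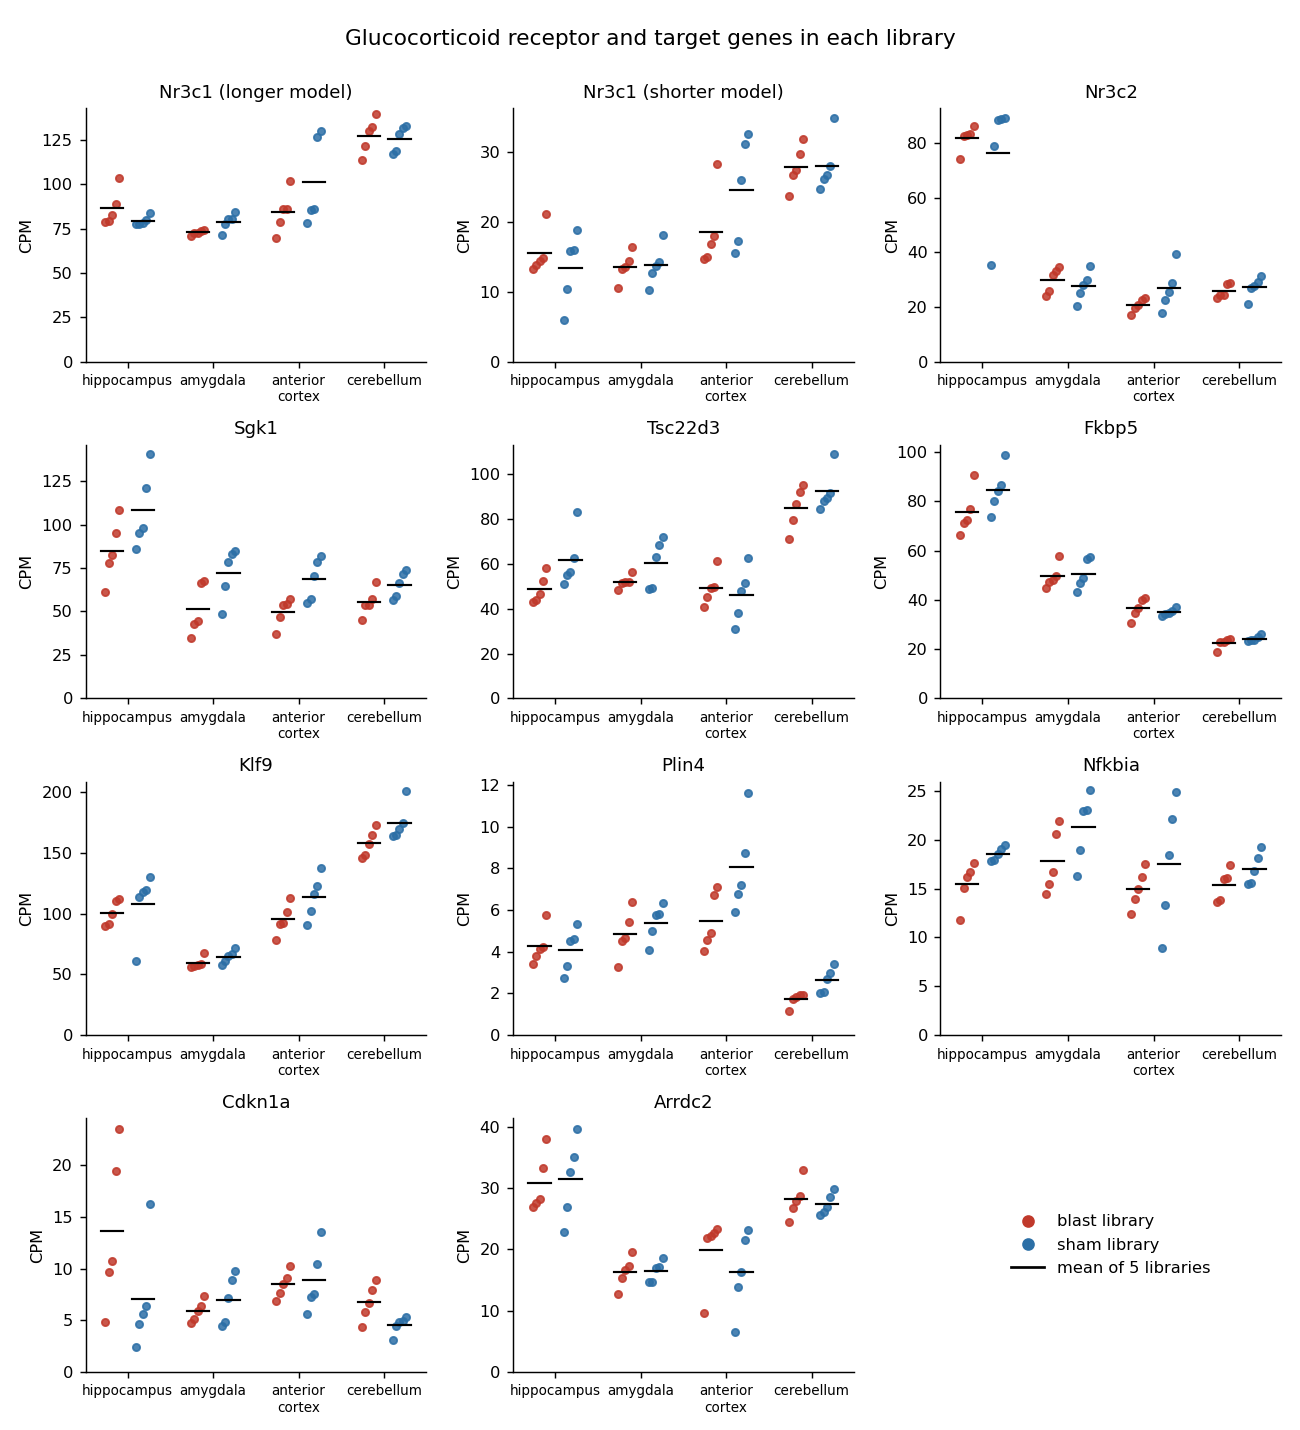
CPM of the 11 identifiers in each library, by region. Red points are blast libraries, blue points sham libraries, and black bars the means of 5. Blast points of Sgk1 lie lower on average in each region, the hippocampal sham library low in Nr3c2 and Klf9 is library 14, and the 3 highest Cdkn1a points are hippocampus libraries Hip_8, Hip_666 and Hip_11.

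The receptors come first. Nr3c1 in the amygdala had 71.1, 72.5, 72.7, 73.8 and 74.2 CPM in blast and 71.5, 77.9, 80.2, 80.7 and 84.5 CPM in sham libraries. Only the lowest sham library fell among the blast libraries, but the difference was small, at a log2 fold change of -0.12 ± 0.06 (adjusted p = 0.582). The fold change was 0.12 ± 0.09 in the hippocampus, -0.26 ± 0.17 in the anterior cortex and 0.02 ± 0.06 in the cerebellum. In the anterior cortex it was -0.04 without the 4 libraries with fewer detected genes. For Nr3c2 it was 0.10 ± 0.21, 0.11 ± 0.14, -0.38 ± 0.19 and -0.07 ± 0.10 in hippocampus, amygdala, anterior cortex and cerebellum. Hippocampal Nr3c2 was 74.0 to 86.0 CPM in blast and 79.0 to 89.0 CPM in sham libraries other than library 14, and without that library its fold change was -0.08. Without the 4 libraries the anterior cortex value was -0.03. The shorter Nr3c1 model ranged from -0.40 ± 0.25 in the anterior cortex to 0.22 ± 0.27 in the hippocampus. Both values rest on few libraries, since the former was -0.03 ± 0.14 without the 4 libraries with fewer detected genes and the latter was 0.03 without sham library 14 and 0.39 without the 3 libraries high in choroid plexus markers.

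Sgk1 had the largest mean difference of the targets over the 4 regions. In the hippocampus its CPM was 61.4, 77.9, 82.4, 95.1 and 108 in blast and 86.0, 95.1, 98.1, 121 and 141 in sham libraries. In the amygdala it was 35.0, 43.1, 44.5, 66.6 and 67.7 in blast and 48.5, 64.6, 78.3, 83.3 and 84.9 in sham libraries. Groups overlapped in both regions, with 3 blast libraries below every sham library in each.

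The anterior cortex had 37.03, 46.8, 54.0, 54.2 and 57.2 CPM of Sgk1 in blast and 54.6, 57.2, 70.5, 78.3 and 82.2 CPM in sham libraries. The cerebellum had 44.8, 53.5, 53.8, 57.0 and 66.8 CPM in blast and 56.6, 58.8, 66.7, 71.5 and 73.7 CPM in sham libraries. Groups overlapped here too, and cerebellum blast library 22 stood above 3 of the 5 sham libraries. The log2 fold change of Sgk1 was -0.35 ± 0.17 in the hippocampus, -0.49 ± 0.19 in the amygdala, -0.46 ± 0.16 in the anterior cortex and -0.25 ± 0.10 in the cerebellum (edgeR adjusted p = 0.998, 0.517, 0.799 and 0.999). Exact permutation tests gave unadjusted p = 0.103, 0.0714, 0.0159 and 0.0714. Without the libraries that stood apart in hippocampus, anterior cortex and cerebellum the fold change was -0.50, -0.47 and -0.36, as large as with them. Summed markers of 11 cell type and region lists overlapped between blast and sham in all 44 pairings of list and region. Averaged over the regions, all 9 meningeal fibroblast markers and all 11 choroid plexus markers had a higher mean in blast (log2 0.13 to 0.72, and 0.15 to 1.21). Of these, 1 fibroblast marker had an unadjusted p under 0.05 and none was called (limma voom). Fibroblast markers summed to 51.8 to 838 CPM in blast and 39.9 to 573 CPM in sham hippocampus, 319 to 691 and 279 to 558 CPM in the amygdala, 97.0 to 208 and 145 to 207 CPM in the anterior cortex and 122 to 347 and 42.7 to 185 CPM in the cerebellum. The median sum of choroid plexus markers was higher in blast in hippocampus (218 against 97.0 CPM) and cerebellum (133 against 70.7 CPM). That median was lower in blast in amygdala (48.1 against 318 CPM) and anterior cortex (11.5 against 14.4 CPM). Of 8 microglia markers 4 were higher and 4 lower, the lowest being P2ry12, named after its value was seen (-0.33 ± 0.10, adjusted p = 0.342). Astrocyte markers were lower in 6 of 8 and oligodendrocyte markers in 6 of 9, and neuron and endothelial markers split 4 and 4. The part of these shifts in Sgk1 and the other members was not tested.

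Tsc22d3 in the hippocampus had 43.0, 43.9, 46.5, 52.4 and 58.3 CPM in blast and 50.9, 54.9, 56.3, 62.8 and 83.2 CPM in sham libraries. The highest sham value was library 14, without which the difference was -0.20. The log2 fold change was -0.34 ± 0.14 in the hippocampus, -0.22 ± 0.11 in the amygdala, 0.09 ± 0.18 in the anterior cortex and -0.13 ± 0.09 in the cerebellum (adjusted p = 0.998, 0.585, 0.896 and 0.999). Without the 4 libraries with fewer detected genes the anterior cortex value was -0.11. Groups overlapped in the hippocampus, with 3 blast libraries below every sham library.

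Nfkbia separated the hippocampal groups without overlap. Blast libraries had 11.8, 15.02, 16.2, 16.7 and 17.6 CPM and sham libraries 17.8, 17.9, 18.5, 19.1 and 19.4 CPM. The highest blast and lowest sham library were close together, and 0.146% of genes were lower without overlap in that region. The log2 fold change was -0.26 ± 0.12 there, -0.26 ± 0.14 in the amygdala, -0.22 ± 0.24 in the anterior cortex and -0.15 ± 0.10 in the cerebellum (adjusted p = 0.998, 0.607, 0.823 and 0.999). The unadjusted exact permutation p in the hippocampus was 0.00794, the smallest that 5 against 5 libraries allow. Any groups without overlap give this value, so it restates the separation. The anterior cortex value was -0.38 without the 4 libraries with fewer detected genes and -0.07 without sham library 11.

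Plin4 separated the cerebellar groups, at 1.15, 1.71, 1.84, 1.91 and 1.93 CPM in blast and 2.002, 2.06, 2.71, 2.98 and 3.41 CPM in sham libraries. These were 18 to 42 counts a library, so counting error alone is up to 23.6% of a value. The log2 fold change was -0.62 ± 0.22 in the cerebellum (adjusted p = 0.96), where 0.311% of genes were lower without overlap. The unadjusted exact permutation p of 0.00794 restates the separation. Without the 3 cerebellum libraries high in choroid plexus markers it was -0.36 ± 0.24. Anterior cortex Plin4 was 4.03 to 7.09 CPM in blast and 5.91 to 11.6 CPM in sham libraries (-0.56 ± 0.25, adjusted p = 0.799). In the amygdala and hippocampus the fold change was -0.15 ± 0.19 and 0.06 ± 0.22.

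Klf9 had small differences of 1 sign, with log2 fold changes of -0.11 ± 0.17, -0.12 ± 0.07, -0.26 ± 0.14 and -0.15 ± 0.07 in hippocampus, amygdala, anterior cortex and cerebellum (adjusted p = 0.998, 0.659, 0.799 and 0.999). Cerebellum blast libraries had 146, 149, 158, 164 and 173 CPM and sham libraries 164, 164, 170, 175 and 201 CPM. In the hippocampus the value was -0.25 without sham library 14 and -0.03 without the 3 libraries high in choroid plexus markers, and in the anterior cortex it was -0.10 without the 4 libraries with fewer detected genes. Fkbp5, the member called between all pairs of regions, had small differences, with fold changes from -0.16 ± 0.10 in the hippocampus to 0.06 ± 0.11 in the anterior cortex. Arrdc2 lay between -0.03 ± 0.15 in the hippocampus and 0.29 ± 0.32 in the anterior cortex, where blast library 8 and sham library 15 were low at 9.55 and 6.54 CPM. Both are among the 4 libraries with fewer detected genes, without which the value was 0.0075 ± 0.11, and it ran from 0.10 to 0.47 when 1 library was left out.

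Cdkn1a differed in the opposite direction in the hippocampus. Blast libraries had 4.83, 9.71, 10.7, 19.5 and 23.5 CPM and sham libraries 2.42, 4.59, 5.57, 6.37 and 16.2 CPM, a log2 fold change of 0.96 ± 0.50 (adjusted p = 0.998). The 3 highest values were blast libraries Hip_8 and Hip_666 and sham library 11, which were also the 3 libraries high in choroid plexus markers, at 8883, 7651 and 5317 summed CPM against at most 256 CPM in the other hippocampus libraries. Ttr, the defining choroid plexus transcript, had 4022 to 6551 CPM in those 3 libraries and at most 179 CPM in the other 7. Without them the fold change was 0.82 ± 0.36, and it was 1.52 without sham library 11 alone and 0.68 without blast library 8 alone. In the cerebellum blast libraries had 4.35, 5.78, 6.64, 7.94 and 8.86 CPM and sham libraries 3.05, 4.47, 4.78, 4.88 and 5.27 CPM (0.58 ± 0.20, adjusted p = 0.96). The 2 highest were blast libraries 22 and 8, again high in choroid plexus markers (2749 and 2108 summed CPM), and without these and sham library 33 the value was 0.34 ± 0.23. In amygdala and anterior cortex, where choroid plexus markers summed to at most 509 and 32.5 CPM, the fold change was -0.25 ± 0.22 and -0.06 ± 0.24. Without the 4 libraries with fewer detected genes the anterior cortex value was 0.43. The part of choroid plexus RNA in these values was not tested.

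**Figure D3:**
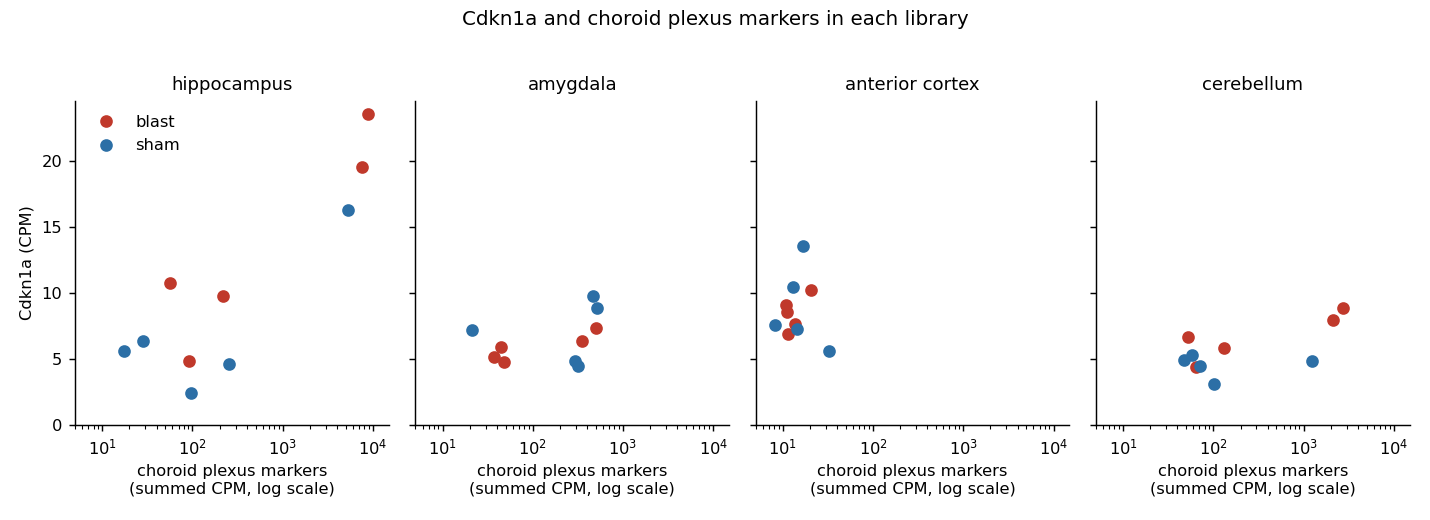
Cdkn1a CPM (vertical) against the summed CPM of choroid plexus markers (horizontal, log axis, 12 markers in the hippocampus and 11 in the other regions) in each library, 1 panel a region, red for blast and blue for sham. The 3 hippocampus libraries highest in these markers and the cerebellum blast libraries 22 and 8 hold the highest Cdkn1a values of their regions.

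The blast difference was not shown to depend on region for any member. The region by treatment interaction, tested by edgeR in 1 model of all 40 libraries, called 0 of 16378 genes (0%), with 779 at an unadjusted p under 0.05 (4.76%). The members had unadjusted interaction p from 0.064 (Cdkn1a) to 0.961 (Nfkbia), and 0.779 for Sgk1, and the adjusted p was 1.00 for each. Of the 11 identifiers 3 (Sgk1, Klf9 and Nfkbia) had a lower mean in all 4 regions, against 9.87% of 13967 genes tested in each region, and none was higher in all 4 (8.35% of those genes). The members were chosen with earlier results of these data known, so these shares are a description.

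Averaged over the 4 regions, Sgk1 had a log2 fold change of -0.39 ± 0.09 by limma voom (adjusted p = 0.117), which ranked 9 of 16378 genes by p. In this test 1 gene was called (0.00611%), not a member, and 1369 had an unadjusted p under 0.05 (8.36%). Plin4 (-0.33 ± 0.12), Nfkbia (-0.21 ± 0.08) and Klf9 (-0.15 ± 0.07) were also among the latter, with adjusted p = 0.46, 0.53 and 0.562. Tsc22d3 was at -0.14 ± 0.07, Fkbp5 at -0.08 ± 0.05, Cdkn1a at 0.35 ± 0.18, Arrdc2 at 0.08 ± 0.11, Nr3c1 at -0.06 ± 0.05 and Nr3c2 at -0.03 ± 0.10. Leaving out title number 14 in all regions brought Sgk1 (-0.46, adjusted p = 0.0451) and Klf9 (-0.22, adjusted p = 0.0498) past the threshold. Over all alternatives the adjusted p of Sgk1 ran from 0.0451 to 0.652 and that of Klf9 from 0.0498 to 0.958.

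**Figure D4:**
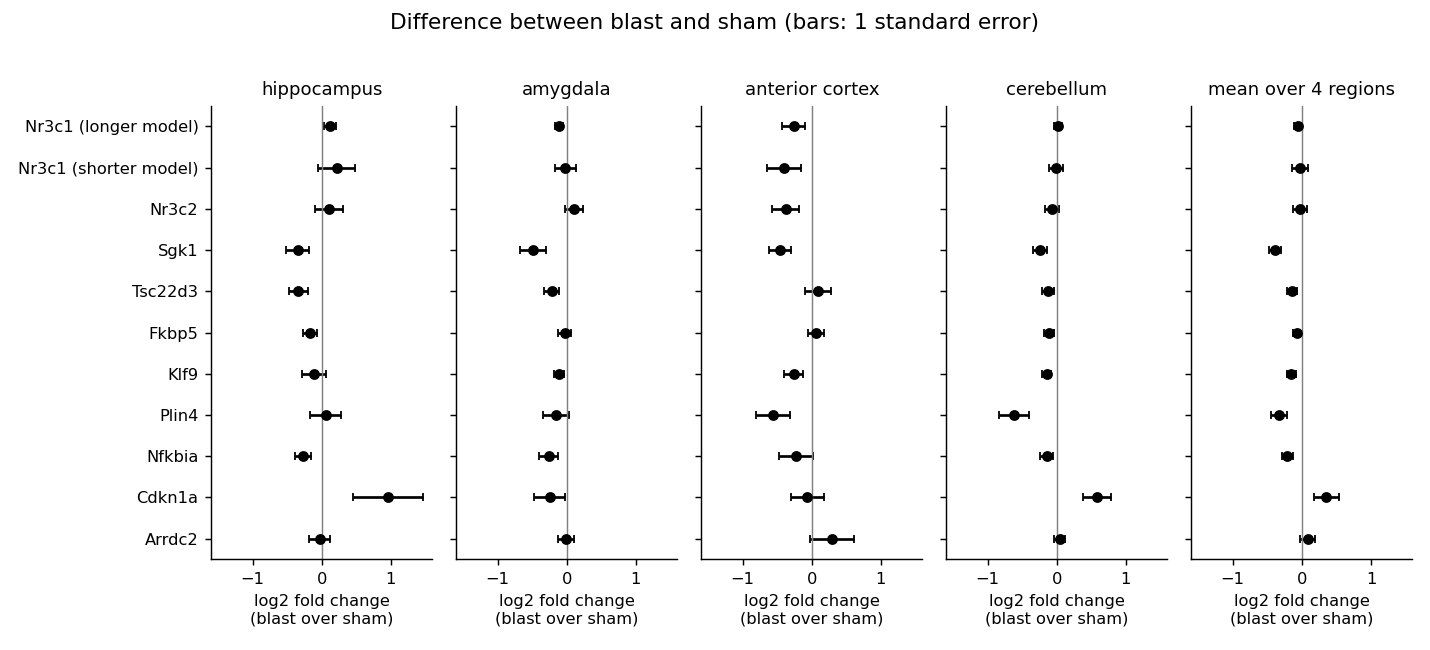
Log2 fold change of blast over sham for the 11 identifiers in each region (edgeR) and averaged over the regions (limma voom), with bars of 1 standard error. Sgk1 lies left of 0 in each panel, at -0.39 ± 0.09 for the mean, and Cdkn1a lies right of 0 in hippocampus and cerebellum.

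Sgk1 was also set out by title number. Blast number 4 was the lowest or next to lowest blast library of Sgk1 in all 4 regions, and its log2 CPM averaged 0.52 below the mean of its regions. The averages of the other blast numbers were -0.30 (number 8), -0.23 (88), 0.0024 (22) and 0.05 (the number of Hip_666). Those of the sham numbers were -0.08 (14), -0.02 (13, without an amygdala library), 0.25 (33), 0.39 (11) and 0.41 (15). Blast number 22 and that of Hip_666 therefore lay above sham numbers 13 and 14. In an exact permutation test over these 10 numbers, the mean difference of Sgk1 was -0.39 (p = 0.0476, adjusted p = 0.652 over all genes) and that of Plin4 -0.33 (p = 0.0397, adjusted p = 0.642). For this test the amygdala sham library whose column and title numbers differ was left out.

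**Figure D5:**
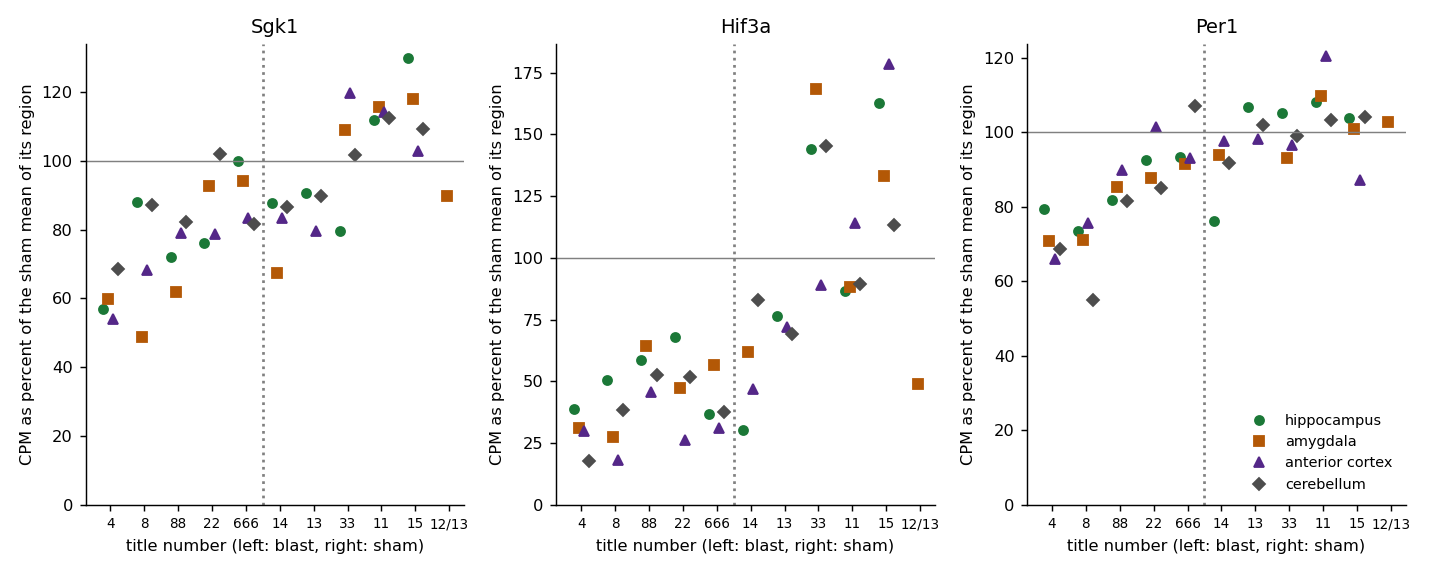
Sgk1, Hif3a and Per1 in each library as percent of the sham mean of its region, by title number, with numbers ordered within each group by mean Sgk1. Marker shapes are regions, and 12/13 is the amygdala sham library whose title and column numbers differ. Blast number 4 is low in Sgk1 in all 4 regions, and every blast library lies below the sham mean of its region in Hif3a.

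A list of 24 further glucocorticoid targets had 22 genes tested in each region. Like the other lists, it was chosen with earlier results of these data known, so its counts beside all genes are a description. Most stood lower in the hippocampus, 18 of 22 with a median log2 fold change of -0.17 (median of all genes 0.00), whereas 12 of 22 were lower in the amygdala (-0.02), 12 in the anterior cortex (-0.09) and 14 in the cerebellum (-0.08). None was called in any region, and 3, 6, 2 and 6 had an unadjusted p under 0.05 (edgeR). Of all genes 1.89%, 8.67%, 4.32% and 4.62% did. Those lower in blast among the list genes at that p were 3, 5, 2 and 5. Without the 3 libraries high in choroid plexus markers the hippocampal count was 16 of 22 (median -0.15), with 0 at an unadjusted p under 0.05. Lower in all 4 regions were 9 of the 22, among them Hif3a, Per1, Mertk and Glul, where 9.87% of the genes tested in each region were. The 2 higher in all 4 (8.35% of those genes) were Anxa1, an anti-inflammatory phospholipid-binding protein, and Gadd45g, a growth arrest and DNA damage response gene, both named after their values were seen. Their log2 fold change averaged over the regions was 0.42 ± 0.18 and 0.53 ± 0.23 (limma voom, adjusted p = 0.543 and 0.55), and Anxa1 was at 0.0022 in the anterior cortex. Other lists, given below, also had genes lower in all 4 regions. They were 4 of 12 coregulators, 2 of 11 receptor chaperones and 3 of 5 adrenal steroid genes, with 1 of these 5 higher in all 4.

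Hif3a (ENSRNOG00000017198), a hypoxia-inducible factor subunit that glucocorticoids induce, had the largest mean difference over the regions of the list. In the anterior cortex it was 1.06, 1.54, 1.74, 1.83 and 2.68 CPM in blast and 2.73, 4.22, 5.20, 6.67 and 10.5 CPM in sham libraries. In the cerebellum it was 0.526, 1.13, 1.15, 1.54 and 1.58 CPM in blast and 2.07, 2.49, 2.68, 3.40 and 4.35 CPM in sham libraries. Neither pair of groups overlapped, where 0.268% (anterior cortex) and 0.311% (cerebellum) of genes were lower without overlap, and the cerebellar values rest on 8 to 51 counts a library. Amygdala libraries had 1.82 to 4.28 CPM in blast and 3.26 to 11.2 CPM in sham, and hippocampus libraries 1.15 to 2.13 CPM in blast and 0.947 (library 14) to 5.10 CPM in sham. The log2 fold change was -0.97 ± 0.40 in the hippocampus, -1.14 ± 0.34 in the amygdala, -1.72 ± 0.38 in the anterior cortex and -1.33 ± 0.29 in the cerebellum (edgeR adjusted p = 0.998, 0.459, 0.799 and 0.764). Without the 4 libraries with fewer detected genes the anterior cortex value was -1.04 ± 0.37. Averaged over the regions it was -1.18 ± 0.23 (limma voom, adjusted p = 0.0573), the second smallest p of all genes and just short of the threshold.

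Per1, a clock gene with glucocorticoid response elements, had 70.7, 70.9, 85.3, 87.5 and 91.4 CPM in blast and 93.1, 93.8, 101, 103 and 110 CPM in sham amygdala, again without overlap (0.733% of genes were lower without overlap there). Its log2 fold change was -0.25 ± 0.11, -0.30 ± 0.08, -0.23 ± 0.14 and -0.34 ± 0.13 in hippocampus, amygdala, anterior cortex and cerebellum, and -0.29 ± 0.06 on average (adjusted p = 0.0808). Mertk, a receptor of phagocytosis, averaged -0.26 ± 0.07 (adjusted p = 0.234), and Glul, the astrocyte glutamine synthetase, -0.20 ± 0.05 (adjusted p = 0.298). In the cerebellum Fam107a (-0.17 ± 0.06) and the repressor Bcl6 (-0.35 ± 0.13) had the smallest p after Hif3a.

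The chaperones that hold the receptor in its hormone-binding state showed no common direction. Of 11 genes tested, 8 were lower in the hippocampus, 5 in the amygdala, 4 in the anterior cortex and 3 in the cerebellum, with medians from -0.01 to 0.08 and none called. Tomm34, a co-chaperone of HSP70 and HSP90, was at 0.16 ± 0.07 in the amygdala and 0.35 ± 0.15 in the anterior cortex (0.16 without the 4 libraries with fewer detected genes), and -0.07 ± 0.07 in the hippocampus. Hsp90aa1, a stress-inducible HSP90, varied widely between libraries, from 30.7 to 121 CPM in blast and 59.6 to 256 CPM in sham hippocampus (-0.80 ± 0.45).

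Coregulators were lower in 11 of 12 in the amygdala (median -0.10) and in 11 of 12 in the anterior cortex (median -0.29), in 8 of 12 in the cerebellum (-0.03) and in 6 of 12 in the hippocampus (-0.01). None was called. The anterior cortex count rests on the 4 libraries with fewer detected genes, 3 of them sham, since without them 4 of 12 were lower and the median was 0.05. Crebbp, a histone acetyltransferase that receptors recruit, was lower without overlap in the cerebellum, at 83.0 to 109 CPM in blast and 113 to 133 CPM in sham libraries (-0.31 ± 0.08, adjusted p = 0.932, with 0.311% of genes lower without overlap there), and was at -0.25 ± 0.09 in the amygdala. Over anterior cortex sham libraries alone Crebbp ran from 56.1 to 275 CPM, and its log2 fold change there went from -0.69 with all libraries to 0.08 ± 0.10 without those 4. Hdac2, the 1 coregulator with a higher mean there, was at 0.29 ± 0.11, and at 0.15 without them.

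Of the genes that make, release or sense adrenal steroid, 5 to 10 of 12 were expressed enough to be tested in a region and none was called. Pomc, the precursor of the pituitary hormone that drives corticosterone release, was 0.853 to 1.35 CPM in blast hippocampus and 0.507 to 30.7 CPM in sham, and 1.47 to 6.83 CPM in blast and 0.833 to 34.2 CPM in sham amygdala. Its log2 fold change of -2.82 ± 0.95 and -1.79 ± 0.81 in these regions thus came with sham libraries that span more than an order of magnitude (adjusted p = 0.998 and 0.561). The highest sham library made up most of the sham total in both regions. Exact permutation tests gave unadjusted p = 0.183 and 0.476. Hsd11b1, which regenerates active hormone in cells, was at 0.15 ± 0.11 in the amygdala, and the corticotropin-releasing hormone receptor Crhr1 at -0.26 ± 0.14 in the anterior cortex (-0.12 without the 4 libraries with fewer detected genes).

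Some pairs of members varied together from library to library, and others did not. After each group's mean was removed, log2 CPM over the 40 libraries had a Pearson r of 0.74 for Nr3c2 and Klf9, 0.71 for Nr3c2 and the shorter Nr3c1 model, 0.59 for Nfkbia and Arrdc2, 0.58 for Tsc22d3 and Nfkbia, 0.55 for Sgk1 and Nfkbia, and 0.42 for Sgk1 and Tsc22d3. Nr3c1 and Arrdc2 went opposite ways (-0.57), as did Fkbp5 and Cdkn1a (-0.56). Other pairs were near 0, such as Nr3c1 and Sgk1 (0.01), Nr3c1 and Tsc22d3 (-0.05) and Sgk1 and Fkbp5 (-0.10). Within single regions of 10 libraries, Sgk1 and Nfkbia had an r of 0.92 in amygdala, 0.62 in cerebellum, 0.46 in hippocampus and 0.40 in anterior cortex. Nr3c2 and Klf9 had an r of 0.92 in the hippocampus, where sham library 14 was low in both. Their r was 0.64 in amygdala, 0.63 in anterior cortex and 0.23 in cerebellum. Nfkbia and Arrdc2 had an r of 0.81 in anterior cortex and 0.33 in hippocampus, but -0.06 in amygdala and -0.17 in cerebellum. For Sgk1 and Tsc22d3 it was -0.01 in hippocampus, 0.70 in amygdala, 0.54 in anterior cortex and 0.67 in cerebellum. Libraries that stood apart, depth and title numbers are shared by all genes of a library, so these values are a description.

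Of 16377 other genes, those most like Sgk1 by the same measure were Acaa2 (r = 0.72), Ifi44 (0.67), LOC100363531 (0.63), RGD1359290 (0.61) and Noc3l (0.59). For Tsc22d3 they were Schip1 (0.77), Mettl7a (0.76), Adora2b (0.76), Lgals9 (0.76) and B2m (0.75), and for Nfkbia Aurkc (0.83), Zfp36 (0.77), Ackr3 (0.77), Nmnat1 (0.77) and Tmprss13 (0.76). Nr3c2 was most like Slc4a8 (0.89), Tulp4 (0.89), AABR07062799.2 (0.89), Ssh1 (0.88) and Prkca (0.88), and Nr3c1 was most like Ulk2 (0.83), Kif5c (0.82), Rabep1 (0.82), Ktn1 (0.81) and Pkp4 (0.81). Klf9 was nearest to Med12l (0.89), Arrdc2 to Med11 (0.90), Cdkn1a to Pbxip1 (0.79), Plin4 to Sh2d1b (0.74) and Fkbp5 to the clone-named AABR07009224.1 (0.61). Sgk1 and Fkbp5 thus had weaker best matches than Nr3c2 or Klf9.

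In the authors' deposited table no member was called in the hippocampus, anterior cortex or cerebellum, where the smallest adjusted p over the members was 0.99983, 0.995 and 0.99961. The authors' deposited table gives no adjusted p for the members in the amygdala. At an unadjusted p under 0.05 the authors' deposited table lists 3, 1, 2 and 4 of the 11 identifiers in hippocampus, amygdala, anterior cortex and cerebellum, and 1.61%, 6.06%, 3.93% and 3.12% of all identifiers with a p-value.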

How the data were processed

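Read counts per gene, the unit of all tests, were deposited by the authors in 1 table a region together with FPKM values, log2 fold changes and p-values. CASAVA is named in the submitters' processing notes. No label or header names the aligner, counter or build, and 40 normalized columns were not used. Libraries were grouped by their labels.

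Genes passing filterByExpr were compared between blast and sham within each region, and between regions in sham libraries, with edgeR 4.0.16 (TMM scaling, quasi-likelihood test, Benjamini-Hochberg adjustment) in R 4.3.3. The mean over regions was fitted with limma 3.58.1 (voom, title number as a random block, consensus correlation 0.02), and the interaction with edgeR. DESeq2 1.42.0, other scalings, filters and left-out libraries were alternatives. The edgeR and limma steps were tested on simulated data. Log2 CPM used a prior count of 2. FPKM, as deposited by the authors, served only to compare levels between genes, without the amygdala sham library whose numbers differ.

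The members and lists were chosen with earlier results of these data known. All members were named. From each further list, up to 3 genes a region with the smallest unadjusted p, and the 5 genes most like each member, could be named. Mertk and Glul values over regions follow that rule.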

Additional observations from a re-analysis of the deposited data

Results flagged for a closer look

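In 9 of 88 groups of 5 libraries, 1 library lay far from the others by Dixon's test, where chance gives about 1 group in 20 (4.4 groups). In the hippocampus, sham library 14 was low in Nr3c2 (35.5 CPM against 79.0 to 89.0) and in Klf9 (60.8 CPM against 114 to 130). Hippocampus sham library 11, high in choroid plexus markers, had 16.2 CPM of Cdkn1a against 2.42 to 6.37, and blast library 4 had 21.2 CPM of the shorter Nr3c1 model against 13.3 to 14.9. Anterior cortex blast library 8, with the fewest detected genes, was low in Arrdc2 (9.55 CPM against 21.9 to 23.4) and high in the shorter Nr3c1 model (28.3 CPM against 14.7 to 17.99). Cerebellum blast library 8, high in choroid plexus markers, was low in Fkbp5 (19.0 CPM against 22.9 to 24.0) and in Plin4 (1.15 CPM against 1.71 to 1.93). Amygdala blast library 88 had 67.5 CPM of Klf9 against 56.3 to 58.4.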

How the results depend on the processing

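No member was called between blast and sham in a region under any alternative run. Over all genes, DESeq2 called 1 hippocampal, 20 amygdala and 5 cerebellar genes, no filter gave 2 in the amygdala, and 1 model of all 40 libraries gave 34 in the anterior cortex, where leaving out the 4 libraries with fewer detected genes gave 2. Leaving out 1 library gave 0 to 1 hippocampal, 0 to 2 amygdala and 0 to 1 cerebellar calls. The mean over regions had 1 call, with 2 without the replicate block, 0 without the 7 libraries that stood apart, 0 in the permutation over title numbers, and 0 to 25 when 1 title number was left out. Between sham regions, hippocampus and anterior cortex gave 4353 calls when only these regions were fitted (6846 with all), and amygdala and anterior cortex gave 2243 with the replicate block and 1761 without the 6 sham libraries that stood apart (3415 with all).

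Small blast differences changed sign. Without the libraries that stood apart, Arrdc2 was 0.079 in the hippocampus, Tsc22d3 -0.11 and Cdkn1a 0.43 in the anterior cortex (0.030 by limma voom), the shorter Nr3c1 model 0.012 and Nr3c2 0.0071 in the cerebellum, and for the mean over regions the shorter model was 0.11 and Nr3c2 0.083. With 1 library left out, the hippocampus ran from -0.078 to 0.17 for Nr3c2, -0.069 to 0.17 for Plin4 and -0.12 to 0.070 for Arrdc2. The amygdala ran from -0.11 to 0.094 for the shorter model, -0.093 to 0.018 for Fkbp5 and -0.082 to 0.069 for Arrdc2, and the anterior cortex from -0.013 to 0.24 for Tsc22d3 and -0.18 to 0.14 for Cdkn1a. The cerebellum ran from -0.017 to 0.056 for Nr3c1, -0.062 to 0.079 for the shorter model and -0.025 to 0.090 for Arrdc2. The mean over regions ran from -0.12 to 0.038 for the shorter model and -0.11 to 0.034 for Nr3c2, and the hippocampal receptor ratio from -0.19 to 0.14. The cause was not tested.

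Of the 38 sham calls, 6 were lost when some single libraries were left out. Tsc22d3 was lost between hippocampus and cerebellum without hippocampus 11, 13 or 33 or cerebellum 15 (adjusted p = 0.0577 to 0.077), and between amygdala and cerebellum without amygdala 14 or the library numbered 12 and 13 (0.0505 and 0.0521). Klf9 was lost between anterior cortex and cerebellum without anterior cortex 14 or 33 (0.0591 and 0.0554). Arrdc2 was lost between amygdala and cerebellum without amygdala 14 or 33 (0.0504 and 0.0514), and between anterior cortex and cerebellum without anterior cortex 11, 13 or 15 or cerebellum 15 (0.0514 to 0.0952). Plin4 was lost between amygdala and anterior cortex without any of 6 libraries (amygdala 11, 14, 15 and the one numbered 12 and 13, anterior cortex 11 and 33, 0.0553 to 0.124). A correlation of deviations over 0.1 was found in 19 of 57 pairs of libraries with the same title number (median 0.07). It was found in 24 of 243 pairs with different numbers (median -0.02). Whether a number stands for an animal is not known from the labels. With the replicate block, 34 of the 38 sham calls were kept and the interaction had 0 calls (903 genes at an unadjusted p under 0.05). The fits without the 3 cerebellum or the 6 sham libraries, the permutation over title numbers, the ratio with both Nr3c1 models added and the lists without libraries that stood apart were chosen after seeing the data.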
